A study of Mus musculus with 3 samples.

Results

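Alpha cells of mouse islets 5 weeks after loss of Taf4 in beta cells were compared between those with a high and those with a low share of *Jun* and *Atf3* transcripts. The cells were chosen by their own UMIs (unique molecular identifiers, which count captured transcripts). A cell was taken as an alpha cell with at least 1000 UMIs, at least 15% of them from *Gcg*, under 10% from *Ins2* and under 2% from *Sst*. Of 11229 barcodes in the 5-week library, and 25524 in the 3 libraries of the series, 2552 met this rule. *Jun* plus *Atf3* made up at least 0.25% of the UMIs in 851 of them, the high side, and under 0.1% in 977, the low side. The other 724 lay between and entered neither side.

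Jun and Atf3 are DNA-binding proteins of the bZIP class. They pair with Fos proteins and with each other to form AP-1 and related dimers, and their genes belong to the immediate early genes, whose transcripts rise within minutes of growth signals, calcium entry, tissue dissociation or stress. Heat shock chaperones are a separate set of inducible genes, which the factor Hsf1 switches on when proteins misfold. Alpha cells are the glucagon cells of the islet and take part in the response to low blood glucose.

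The mutant mice carried *Ins1*::Cre-ERT2 and *Taf4* lox/lox on a C57/Bl6 background and received tamoxifen on 3 consecutive days at 11 to 13 weeks of age. The *Ins1* driver recombines the floxed alleles in beta cells. The alpha cells described here were chosen by their hormone UMIs and not by lineage, so whether recombined cells that came from beta cells are among them was not tested. Each library used 300 islets, from 1 WT mouse or pooled from 2 mutant mice at 1 week or at 5 weeks after inactivation. All these mice were stated to be male. The labels call the control wild type. The study names it *Taf4* +/+, its term for controls that carried the driver with intact *Taf4* and were given tamoxifen as well, though the labels do not state this for the mouse sequenced. Islets were digested and, by the study's isolation protocol, then kept in culture. They were treated with Accutase for 5 minutes and sorted for live cells before capture on the 10X Genomics Chromium, which reads the 3' ends of transcripts. The 2 mice of the 5-week library cannot be told apart, and all cells of a side share that library. With 1 library per condition and both sides in the same library, no test was made, and every interval below covers counting error only.

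Against its label the WT library held 17357 UMIs of *Xist*, the transcript of the inactive X chromosome, and 0 of the Y-linked *Ddx3y*, whereas the 5-week library held 11 and 1349. Total UMIs ran from 19472212 to 39408284 per library. The 5-week library shared 33 barcodes with WT and 5 with the 1-week library, and 6 cells of the 2 sides were among them. *Taf4* itself gave 6 UMIs on the high and 5 on the low side after thinning and *Taf4b* none. Where the 3' tag lies relative to the deleted exons is not given, so these counts do not check the deletion.

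Both sides were alike in depth and in the share of mitochondrial UMIs. The median cell held 1813 UMIs and 600 genes on the high side and 1916 UMIs and 585 genes on the low side, with 2.21% and 2.11% mitochondrial UMIs. The cut points fell in a continuous distribution. The lowest high-side cell had a share of 0.2503% and the highest cell between the sides 0.2498%, and 188 cells lay from 0.25% to under 0.3% against 189 from 0.2% to under 0.25%. At the lower cut the highest low-side cell had 0.0999%, and 490 of the 977 low-side cells held no UMI of either gene. In cells of these depths both cuts correspond to a few UMIs.

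**Figure D1:**
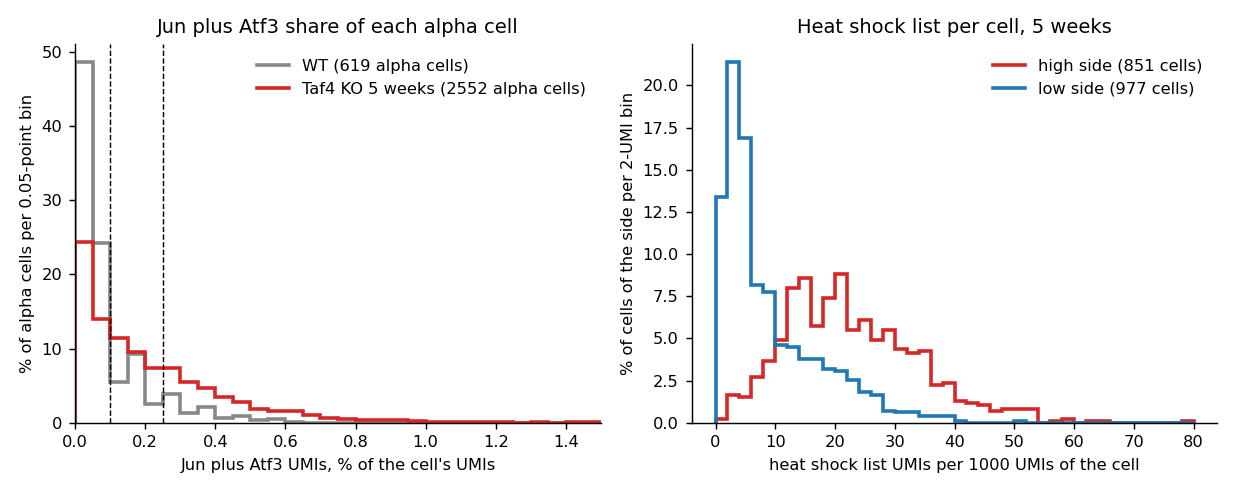
Left, distribution of the Jun plus Atf3 share (percent of a cell's UMIs) over 619 WT and 2552 5-week alpha cells, as percent of cells per bin, with the 0.1% and 0.25% cuts as dashed lines. Right, UMIs of the heat shock list per 1000 UMIs in each cell of the high (851 cells) and low (977 cells) sides, with medians of 21 and 5.

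Alpha markers were present on both sides. All 13 were detected, and their sum took 393307 CPM (the UMIs of a gene scaled to a common total per side) on the high side and 444110 CPM on the low side. *Gcg*, which the rule required, made up 377475 and 424613 CPM of these sums. Markers of other cells were at low levels relative to these sums. For beta and delta markers this was partly set by the rule. It capped *Ins2*, at 32942 and 32876 CPM here, and *Sst*, at 686 and 486 CPM. Beta markers summed to 38850 and 39375 CPM, delta markers to 1737 and 1474 CPM and acinar markers to 2103 and 2064 CPM. PP markers were lower on the high side, at 22551 against 27421 CPM, nearly all of it *Pyy* and *Ppy*. Ductal markers were at 542 against 362 CPM, through *Krt18* with 346 against 219 UMIs, while the defining *Krt19* and *Sox9* were at 0. Endothelial markers gave 37 against 6 UMIs and erythroid markers 6 against 38. Macrophage markers gave 43 against 45 UMIs, mesenchymal markers 7 against 6 and T and B cell markers 1 against 0. Whether the cells that carry these UMIs take part in the differences below was not tested.

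*Jun* and *Atf3* chose the cells, and their values are a description. After each cell was thinned to 1000 UMIs, *Jun* stood at 3247 CPM (95% interval 3127 to 3370) on the high side and 247 CPM (217 to 280) on the low side. *Atf3* stood at 1200 CPM (1127 to 1276) and 69.6 CPM (54.0 to 88.2). The median high-side cell held 3 *Jun* and 1 *Atf3* UMIs of 1000, and the median low-side cell held none. The gap was smaller in UMIs that the cut did not use. When the UMIs of each cell with at least 2000 were divided at random, the sides cut on one portion and the genes counted in the other, *Jun* stood at 2420 and 685 CPM and *Atf3* at 825 and 161 CPM.

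The promoters of both genes, and of 4 genes that stood highest on the high side, are shown because the heat shock, ATF and kB letters searched for in this report lie in them. The sequences are from RefSeq, build GRCm38.p6, and run over the 250 bases before the start site, 5' to 3'. Capitals mark the heat shock element GAANNTTC in Jun, Hspa1a, Hspb1 and Dnaja1, the ATF4 site (TGATGCAA, here on the other strand) in Atf3, and the kB site in Nfkbia. A kB match in Hspa1a, 133 bases before its start site, is not marked.
Jun (chr4:95052223-95052472, minus strand): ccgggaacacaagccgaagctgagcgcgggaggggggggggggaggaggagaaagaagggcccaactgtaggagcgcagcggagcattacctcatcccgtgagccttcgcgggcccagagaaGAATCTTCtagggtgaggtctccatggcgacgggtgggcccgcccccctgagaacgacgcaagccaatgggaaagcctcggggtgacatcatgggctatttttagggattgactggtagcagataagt
Atf3 (chr1:191183334-191183583, minus strand): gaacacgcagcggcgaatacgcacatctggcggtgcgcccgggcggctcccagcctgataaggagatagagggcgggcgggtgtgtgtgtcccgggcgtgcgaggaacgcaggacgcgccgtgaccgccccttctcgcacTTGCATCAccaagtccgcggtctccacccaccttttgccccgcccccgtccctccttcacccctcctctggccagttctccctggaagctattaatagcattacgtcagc
Hspa1a (chr17:34972157-34972406, minus strand): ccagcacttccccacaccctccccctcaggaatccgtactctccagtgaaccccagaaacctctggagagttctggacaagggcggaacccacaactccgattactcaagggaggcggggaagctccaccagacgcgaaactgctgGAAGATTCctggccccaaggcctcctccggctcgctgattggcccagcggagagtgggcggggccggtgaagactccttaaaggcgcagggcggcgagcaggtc
Hspb1 (chr5:135887669-135887918, plus strand): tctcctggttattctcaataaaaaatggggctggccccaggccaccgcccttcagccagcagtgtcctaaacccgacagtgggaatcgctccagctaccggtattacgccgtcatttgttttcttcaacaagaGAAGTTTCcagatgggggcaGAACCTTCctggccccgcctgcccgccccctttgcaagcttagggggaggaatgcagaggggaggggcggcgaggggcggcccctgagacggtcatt
Dnaja1 (chr4:40722218-40722467, plus strand): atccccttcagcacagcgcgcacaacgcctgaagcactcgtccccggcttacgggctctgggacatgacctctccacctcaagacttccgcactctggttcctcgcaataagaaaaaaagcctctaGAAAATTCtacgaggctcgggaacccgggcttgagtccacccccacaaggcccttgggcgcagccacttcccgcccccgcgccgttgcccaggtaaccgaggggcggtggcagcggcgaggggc
Nfkbia (chr12:55492648-55492897, minus strand): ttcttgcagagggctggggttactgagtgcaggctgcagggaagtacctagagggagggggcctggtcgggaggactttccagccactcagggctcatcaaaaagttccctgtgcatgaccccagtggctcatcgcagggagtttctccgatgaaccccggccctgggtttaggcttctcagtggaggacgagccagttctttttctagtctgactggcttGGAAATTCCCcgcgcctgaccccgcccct

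Heat shock genes, immediate early genes and the AP-1 partners of Jun made up 31 of the 55 genes at least 2-fold higher on the high side. Of 1520 genes with a mean of at least 50 CPM over both sides, *Jun* and *Atf3* left out, 55 (3.62%) were at least 2-fold higher on the high side and 2 (0.132%) at least 2-fold lower. The median log2 ratio over all 1520 genes was 0.05. Their intervals lay above 0 for 201, below 0 for 54 and across 0 for 1265. Of the 55, 14 were in the heat shock list, 13 in the list of other immediate early genes and 4 in the list of AP-1 and ATF factors, together 31. *Nfkbia* was in the list of NF-kB targets, and 23 were in none of the lists. As these genes were read in the same cells and libraries that were cut, the counts describe the cut and support nothing further.

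**Figure D2:**
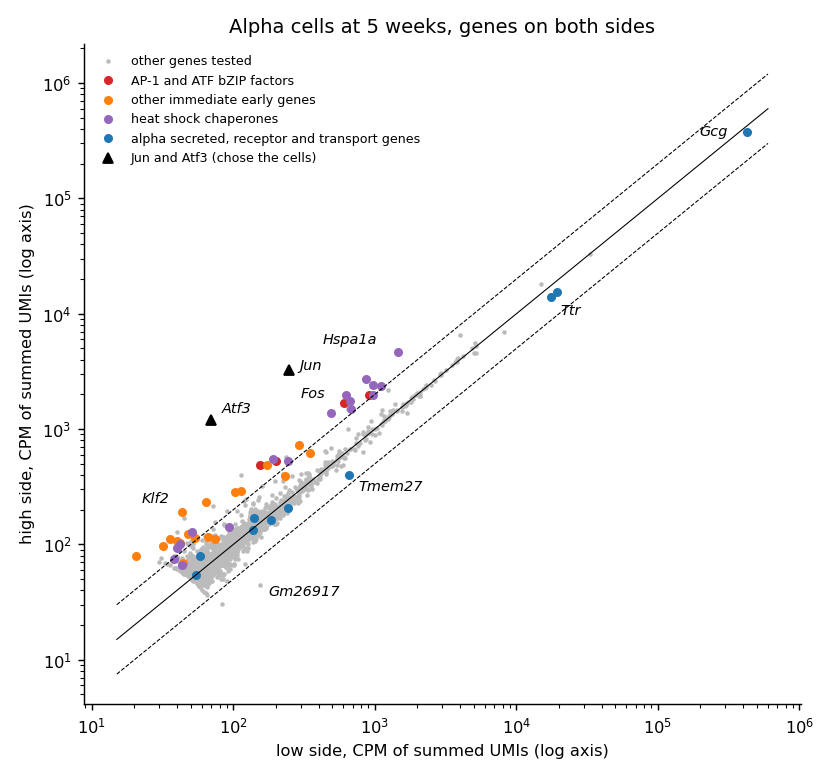
Each point is a gene, with its CPM of summed UMIs on the low side (x) and the high side (y), both on log axes. The solid line marks equality and the dashed lines a 2-fold difference, and 55 of the 1520 genes tested lie above the upper and 2 below the lower dashed line.

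The AP-1 partners stood together. Of 15 members besides *Jun* and *Atf3*, 4 passed the filter and all 4 were at least 2-fold higher, with a median log2 ratio of 1.43. *Fos*, the usual partner of Jun, was at 1671 CPM (1585 to 1760) on the high side and 605 CPM (557 to 656) on the low side. *Fosb*, a Fos paralogue, was at 490 against 155 CPM, *Junb* at 529 against 201 CPM and *Jund* at 1972 against 912 CPM. Their log2 ratios were 1.66 for *Fosb*, 1.47 for *Fos*, 1.40 for *Junb* and 1.11 for *Jund*. The median cell held 1 *Fos* UMI of 1000 on the high side and 0 on the low side, and the sides overlapped, since low-side cells reached 8 UMIs and high-side cells 14. The other members were under the filter, among them *Maff* with 18 against 4 UMIs, *Fosl2* with 12 against 4, *Mafg* with 40 against 39 and *Atf2* with 24 against 24.

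Other immediate early genes showed the same direction. All 18 of the 49 that passed the filter had an interval above 0, beside 201 of all 1520 genes tested. Of the 18, 13 were at least 2-fold higher, and the median log2 ratio was 1.35. *Klf2*, a zinc finger factor, had the largest ratio of the 1520 genes tested, with 190 CPM (162 to 222) against 43.0 CPM (31.0 to 58.1), a log2 ratio of 2.15 (1.65 to 2.67). It rests on 162 and 42 UMIs, and 132 of 851 cells carried any. Its relatives *Klf6* and *Klf4* had log2 ratios of 1.86 and 1.64. *Egr1*, a zinc finger factor of the serum response, was at 486 CPM (441 to 536) against 174 CPM (149 to 202). *Npas4*, a factor that follows calcium entry in excitable cells, was at 122 against 48.1 CPM, and *Gadd45g*, a stress-induced gene, at 720 against 291 CPM. Genes that feed back on these signals were in the same group. The phosphatase genes *Dusp5* and *Dusp1* had log2 ratios of 1.96 and 1.10, and *Zfp36*, which speeds the decay of AU-rich mRNAs, of 1.42. *Mcl1*, a survival gene of the Bcl2 family, was at 96.4 against 31.7 CPM. The 5 that passed the filter without reaching 2-fold were *Btg2*, *Rgs2*, *Gadd45b*, *Nfil3* and *Btg1*, from 0.83 down to 0.58.

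Heat shock chaperones carried the most UMIs of the 3 lists with a median above 2-fold. The 20 members together were at 22428 CPM on the high side and 8594 CPM on the low side, a log2 ratio of the sums of 1.38 (1.35 to 1.42). Of the 17 that passed the filter, 14 were at least 2-fold higher, and the other 3, *Chordc1*, *Hspa4l* and *Ahsa1*, had ratios of 0.97, 0.61 and 0.61. *Hspa1a*, an inducible Hsp70, was at 4685 CPM (4541 to 4833) against 1463 CPM (1388 to 1540). Its neighbour *Hspa1b* was at 2716 CPM (2606 to 2829) against 870 CPM (812 to 931). The coding sequences of this pair are nearly identical, so how reads were divided between them is uncertain, while their directions were the same. *Hspb1*, a small heat shock protein, was at 1989 CPM (1896 to 2087) against 622 CPM (574 to 674). The co-chaperones that work with Hsp70 followed, with *Dnajb1* at 1365 against 489 CPM, *Dnaja1* at 1741 against 668 CPM and *Hsph1*, which exchanges the nucleotide of Hsp70, at 546 against 189 CPM. The cytosolic *Hsp90aa1* was at 2401 against 975 CPM and *Hsp90ab1* at 2343 against 1101 CPM. The mitochondrial chaperonin pair *Hspd1* and *Hspe1* had log2 ratios of 1.12 and 1.14, and the constitutive *Hspa8* of 1.04.

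Cell by cell, the heat shock list was also higher on the high side, with overlap. The median cell held 21 heat shock UMIs of 1000 on the high side, with the middle 80% from 10 to 37. On the low side the median was 5, with the middle 80% from 1 to 21. The sides overlapped: 658 of 851 high-side cells (77.3%) and 227 of 977 low-side cells (23.2%) held at least 14. *Hspa1a* alone had a median of 4 and of 0 UMIs, with highest cells at 21 and 17.

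Genes outside the lists included other chaperone partners. *Dnaja4*, a J-domain co-chaperone that the fixed heat shock list did not hold, was at 400 against 114 CPM, *Serpinh1*, the collagen chaperone Hsp47 of the endoplasmic reticulum, at 214 against 71.6 CPM, and *Clu*, a secreted chaperone, at 129 against 39.9 CPM. The log2 ratio of *Clu*, 1.70, rested on the random draw of the thinning, since another draw gave 0.78, all UMIs without thinning 1.14 and a high side at 0.5% or more 0.81. Among the rest, chosen for mention after their values were seen, were *Krt8*, the keratin partner of *Krt18*, at 573 against 235 CPM, and *Cacybp* and *Nudc*, Hsp90-associated proteins, with log2 ratios of 1.06 and 1.02.

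Other stress programmes had lower medians in this draw of the thinning. None of the 5 tested genes of the integrated stress response was 2-fold higher, beside 3.62% of all genes tested. Their median log2 ratio was 0.65. With few UMIs per gene this median varied, at 0.99 in another draw, 0.66 without thinning and 0.39 with limits on genes and mitochondrial UMIs. *Atf4*, the factor at its centre, was at 195 against 106 CPM, with a log2 ratio of 0.87 (0.51 to 1.24), and its target *Ddit3*, which encodes Chop, at 119 against 70.6 CPM, with 0.75 (0.29 to 1.21). *Ppp1r15a*, which reverses the phosphorylation of eIF2alpha, had a ratio of 0.65 (0.19 to 1.11), *Cebpb* of 0.61 (-0.01 to 1.23), and the amino acid transporter gene *Slc3a2* of -0.57 (-1.14 to -0.01). Most targets of Atf4 were under the filter, such as *Asns* with 16 against 22 UMIs and *Chac1* with 9 against 7. Of 16 genes for chaperones of the endoplasmic reticulum and its degradation pathway, none differed by 2-fold, with a median of 0.03. Few of all genes tested did, with 3.62% higher and 0.132% lower. Of their intervals 13 spanned 0, a share close to that of all genes tested (1265 of 1520). *Herpud1* and *Hspa5*, the latter encoding BiP, had ratios of 0.76 (0.45 to 1.07) and 0.54 (0.35 to 0.72), while *Hsp90b1*, *Pdia6*, *Manf* and *Dnajb9* stood between -0.06 and 0.08. *Serpinh1*, which also works in the endoplasmic reticulum but was not in this list, had a ratio of 1.58.

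Among 15 antioxidant and metallothionein genes none differed by 2-fold, beside 3.62% higher and 0.132% lower over all genes tested. Their median was 0.16. The metallothionein genes *Mt1* and *Mt2* had ratios of 0.58 and 0.67 and *Txnip*, a glucose-responsive thioredoxin inhibitor, of 0.85 (0.58 to 1.12). Of 3 tested p53 targets and cell death genes, the cell cycle inhibitor gene *Cdkn1a* was at 88.1 against 58.3 CPM and *Trp53inp1* at 62.3 against 38.9 CPM, while *Bax* was at 179 against 161 CPM. *Nfkbia*, the inhibitor of NF-kB, was the only member of its list that passed the filter, at 168 CPM (142 to 198) against 45.0 CPM (32.7 to 60.5), a log2 ratio of 1.90 that was 1.34 in another draw.

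**Figure D3:**
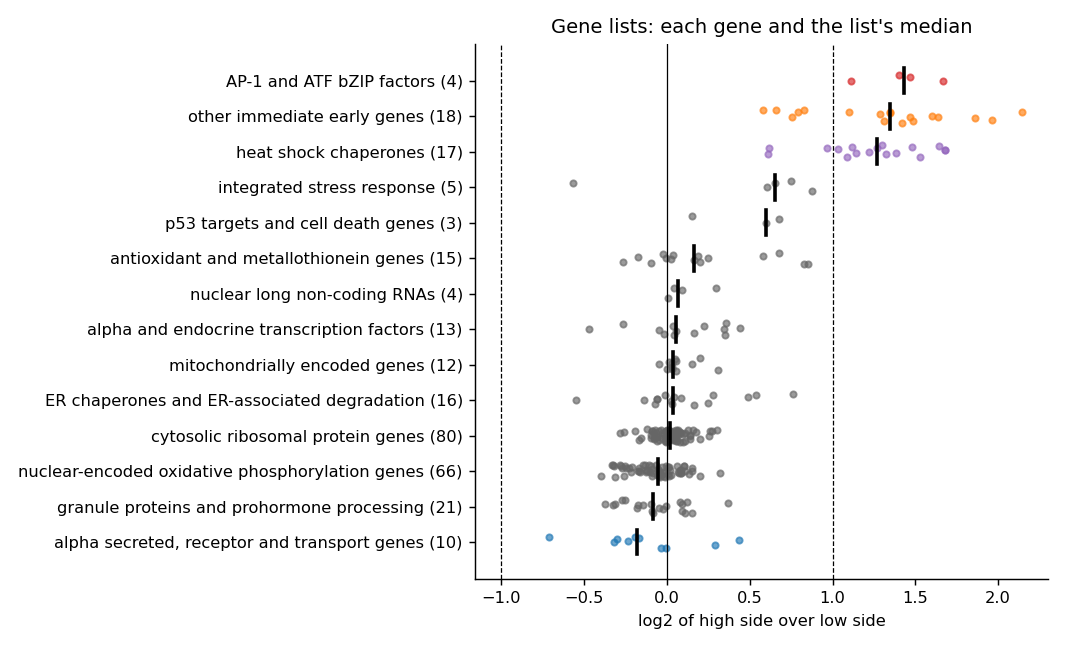
log2 ratio of the high over the low side for each tested gene (points) and the median (black bars) of 14 lists, with the number of tested genes in brackets and 2-fold as dashed lines. The AP-1, other immediate early and heat shock lists have medians of 1.43, 1.35 and 1.27, and the other medians lie between -0.18 and 0.65.

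No tested gene of alpha cell identity or hormone output differed by 2-fold. Over all 1520 genes tested only 3.62% were at least 2-fold higher and 0.132% lower, so this count is not particular to these genes. Of 13 tested transcription factors of alpha and other endocrine cells, 11 had intervals that spanned 0, with a median of 0.06. That share is close to the 1265 of 1520 over all genes tested and is not particular to these factors. *Irx2*, *Pax6*, *Isl1* and *Neurod1* lay between 0.04 and 0.36, each with an interval across 0.

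*Gcg*, the glucagon gene, was part of the rule that chose alpha cells, but not of the cut into sides. It was at 377475 CPM on the high side and 424613 CPM on the low side, a log2 ratio of -0.17 (-0.18 to -0.16), and its median share of a cell's UMIs was 38.5% and 43.3%. Since *Gcg* takes so many UMIs, a lower *Gcg* share raises the CPM of all other genes. When CPM were taken of UMIs other than *Gcg*, the median over all genes moved from 0.05 to -0.03. *Ttr*, encoding transthyretin, was at 14072 against 17575 CPM and *Pyy*, encoding peptide YY, at 15584 against 19251 CPM, with ratios of -0.32 and -0.30. *Tmem27*, a collectrin of the endocrine cell membrane, was the lowest of the 10 tested genes of this list, at 401 CPM (359 to 446) against 658 CPM (608 to 711), a ratio of -0.72 (-0.91 to -0.52). The median of the list was -0.18, and the other 6 intervals spanned 0.

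The secretory machinery lay close to equality. The 21 tested granule and prohormone processing genes had a median of -0.08, with 5 intervals below and 1 above 0. Over all 1520 genes tested, 54 were below and 201 above 0. *Pcsk2*, the convertase that makes glucagon, was at 1999 against 2005 CPM and *Chga* at 1945 against 2075 CPM, while *Pam*, *Scg2* and *Cpe* had ratios of -0.33, -0.27 and -0.25. Housekeeping sets lay close to equality as well. The medians were 0.04 for 12 mitochondrially encoded genes, 0.02 for 80 cytosolic ribosomal protein genes and -0.05 for 66 nuclear-encoded genes of oxidative phosphorylation. Of 4 nuclear long non-coding RNAs *Malat1* was at 18210 against 14851 CPM, a ratio of 0.29 (0.26 to 0.33), and the median was 0.07. The sex-linked genes together gave 97 against 100 UMIs, with *Ddx3y* at 49 against 21, *Eif2s3y* at 30 against 51, *Kdm5d* at 7 against 17, *Uty* at 11 against 11 and *Xist* at 0 on both sides.

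The 15 lowest genes were mostly sparse. Only *Gm26917* and *Ppp1r37* were at least 2-fold lower on the high side. *Gm26917*, annotated as a non-coding RNA, was at 44.7 CPM (31.6 to 61.3) against 154 CPM (130 to 180), a ratio of -1.78 (-2.34 to -1.26), from 38 UMIs in 34 cells and 150 UMIs in 103 cells. It stood at -0.96 when the sides were cut on other UMIs than those counted and at -0.75 under a stricter alpha cell rule with 96 and 122 cells. *Ppp1r37*, a regulatory subunit gene of protein phosphatase 1, was at 30.6 CPM against 82.9 CPM, from 26 and 81 UMIs. Its ratio of -1.44 rested on the random draw of the thinning, since all UMIs without thinning gave -0.61 and another draw -0.82. The other 13 were *Nucb1*, *Tmem27*, *Pgam1*, *Tulp4*, *Ang*, *Rundc3a*, *Luc7l3*, *Vkorc1*, *Ap1s2*, *1110004F10Rik*, *Bphl*, *Ilkap* and *Nisch*, with ratios from -0.90 to -0.61, which ran from -0.59 to -0.21 when all UMIs were counted without thinning. Apart from *Tmem27*, each of these 13 had at most 118 UMIs on a side. Other settings turned the sign of several. Of the 15 lowest, only 7 kept a ratio below 0 under the stricter alpha cell rule, where *Rundc3a* stood at 1.35. With the high side at 0.5% or more 11 did, and 12 when the sides were cut on other UMIs than those counted.

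Levels were also read in groups of cells ordered by their *Jun* plus *Atf3* share. The groups rest on the same few UMIs as the cuts, and counting error moves cells between them. Steps over the groups therefore cannot tell a graded relation from a mixture of separate states, and this was not tested. Over 490 cells with no UMI of either gene, 487 above 0 and under 0.1%, 724 from 0.1% to under 0.25%, 612 from 0.25% to under 0.5% and 239 at 0.5% or more, the heat shock list stood at 6241, 11156, 15258, 20796 and 27096 CPM. Each step was upward, as it was for the AP-1 list without *Jun* and *Atf3*, at 1569, 2480, 3296, 4461 and 5410 CPM, and for *Fos*, at 445, 772, 1032, 1489 and 2113 CPM. *Gcg* went the other way at every step, at 428127, 422620, 405971, 385773 and 355515 CPM. *Ddit3* went from 53.1 CPM in cells without the pair to 126 CPM in the highest cells, with wide intervals, and *Hspa5* from 431 to 724 CPM. *Gm26917* was at 212 CPM in the cells with no UMI of the pair, 71.9 CPM in the next group and 37.7 CPM in the highest. The 13 mitochondrially encoded genes stayed between 24390 and 25862 CPM.

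**Figure D4:**
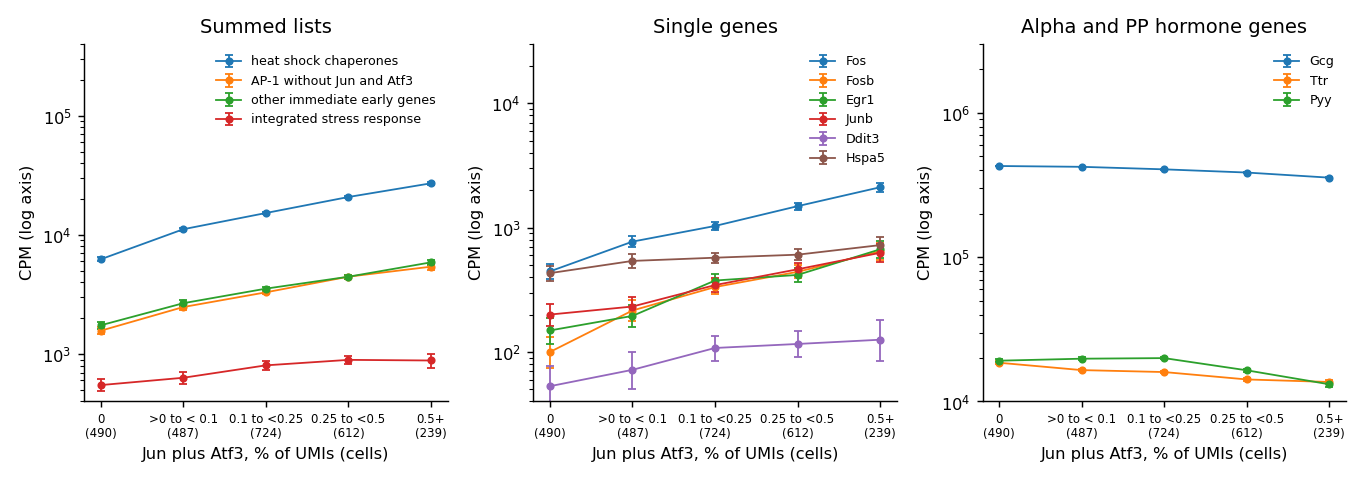
CPM (log axes, exact 95% Poisson intervals) of summed lists, single genes and hormone genes in 5 groups of 5-week alpha cells ordered by their Jun plus Atf3 share, with the number of cells in brackets. The heat shock list goes from 6241 to 27096 CPM and Gcg from 428127 to 355515 CPM.

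*Jun* and *Atf3* were then taken apart. After thinning, 792 of the 2552 alpha cells held neither transcript, 1045 only *Jun*, 183 only *Atf3* and 532 both. Cells with only *Jun* and cells with only *Atf3* had close levels of the other programmes. The heat shock list was at 16534 CPM (16288 to 16782) with *Jun* alone and 17005 CPM (16413 to 17614) with *Atf3* alone, against 8327 CPM with neither and 22098 CPM with both. *Egr1* was at 359 CPM (323 to 397) with *Jun* alone and 388 CPM (303 to 489) with *Atf3* alone, and *Fosb* at 368 and 399 CPM. *Fos* was at 1213 CPM (1148 to 1282) with *Jun* alone and 973 CPM (835 to 1127) with *Atf3* alone, and these intervals did not overlap. *Ddit3* was at 80.4 CPM (64.1 to 99.5) and 137 CPM (88.4 to 202), with overlapping intervals. A cell without a UMI of a gene may still express it at this depth.

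Heat shock and immediate early transcripts also varied together within each side. Cells of a side were ranked by heat shock UMIs and divided into 4 equal groups. On the low side, where *Jun* plus *Atf3* was under 0.1% in every cell, *Fos* went from 241 CPM (183 to 311) in the lowest to 963 CPM (844 to 1094) in the highest group. *Egr1* went from 65.3 to 303 CPM and *Fosb* from 36.7 to 316 CPM over the same groups. On the high side *Fos* went from 1441 to 2274 CPM, with 1333 CPM in the second group, and *Egr1* from 357 to 717 CPM. The pair that made the cut was not held constant over these groups. On the low side *Jun* went from 127 to 357 CPM and *Atf3* from 20.4 to 139 CPM. On the high side they went from 2906 to 3722 CPM and from 812 to 1547 CPM. *Gcg* went down from group to group on both sides, from 415662 to 327212 CPM on the high and from 448816 to 387475 CPM on the low side. The heat shock UMIs of a cell correlated with its UMIs of *Fos*, *Fosb* and *Egr1* with a Pearson r of 0.33 over 851 high-side cells and 0.36 over 977 low-side cells, which share their library.

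The same cuts were laid on other cells, from which none of the genes had been chosen. In WT 61 of 619 alpha cells (9.85%, exact binomial 95% interval 7.62 to 12.5) were on the high and 451 (72.9%) on the low side, against 33.3% (31.5 to 35.2) and 38.3% at 5 weeks. The median alpha cell had 1218 UMIs in WT and 1884.5 at 5 weeks. With all cells thinned to 1000 UMIs before the cut, 9.53% of WT and 32.0% of 5-week alpha cells held at least 3 UMIs of the pair. None of 149 alpha cells of the 1-week library, with a median of 22471 UMIs, was on the high side, which allows a share of up to 2.01%. Genotype, mouse, time, library and, by the *Xist* and *Ddx3y* UMIs given above, sex cannot be told apart in these shares. The same holds for the levels and shares that follow. Over all alpha cells thinned alike, the WT level was 578 CPM for *Jun* and the 5-week level 1562 CPM. The same values were 682 and 2993 CPM for *Hspa1a*, 544 and 1080 CPM for *Fos* and 67.9 and 79.2 CPM for *Clu*. The share on the high side was also larger at 5 weeks in beta and delta cells. Of beta cells, 83 of 7897 (1.05%) in WT and 489 of 5344 (9.15%) at 5 weeks were on the high side, and of delta cells 20 of 53 (37.7%) and 537 of 810 (66.3%), with median UMIs per cell of 1731 and 4095 in beta and of 1134 and 1238.5 in delta cells.

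In WT alpha cells the 15 highest genes of the 5-week contrast were again higher on the high side. All 15 had a ratio above 0 and 13 an interval above 0, against 59.4% of all WT genes tested with a ratio above 0. *Hspa1a* had a log2 ratio of 1.71 (1.35 to 2.07), *Dnajb1* of 1.49 (1.07 to 1.90) and *Hspb1* of 2.51 (2.16 to 2.84), the last wholly above its interval at 5 weeks. *Fos* had 0.82 (0.35 to 1.27), wholly below it, and *Dnaja4* and *Clu* had intervals across 0. The heat shock list as a whole was at 13115 CPM on the WT high side and 5259 CPM on the low side, a log2 ratio of 1.32 (1.20 to 1.43) beside 1.38 at 5 weeks. Since the WT high side held 61 cells, small counts gave many large ratios: of 1537 genes tested, 154 (10.0%) were at least 2-fold higher and 84 (5.47%) lower. Of the 15 lowest genes, 8 had a ratio above 0 in WT and none an interval below 0. *Tmem27* had a WT ratio of -0.16 (-0.71 to 0.36).

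Beta and delta cells of the 5-week library showed the same direction for the 15 highest genes. In beta cells, in which the driver is active, all 15 had an interval above 0, with *Hspa1a* at 1.70 (1.60 to 1.80), *Fos* at 1.68 (1.60 to 1.76) and *Serpinh1* at 2.90 (2.23 to 3.56). The whole beta contrast was shifted, since 86.7% of all genes tested had a ratio above 0 and the median was 0.31. Of 1252 genes tested there, 84 (6.71%) were at least 2-fold higher and 0 (0%) lower. In delta cells all 15 had a ratio above 0 and 13 an interval above 0, but 10 had intervals wholly below those of alpha cells. *Hspa1a* was at 1.22 (1.09 to 1.35), *Dnaja1* at 0.83 (0.63 to 1.04) and *Hsph1* at 0.91 (0.60 to 1.24), while *Nfkbia* and *Clu* had intervals across 0. Of 2303 genes tested in delta cells, 78 (3.39%) were at least 2-fold higher and 20 (0.868%) lower, against a median of 0.01. *Tmem27* was lower on the high side of delta cells as well, at -0.67 (-1.07 to -0.27).

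**Figure D5:**
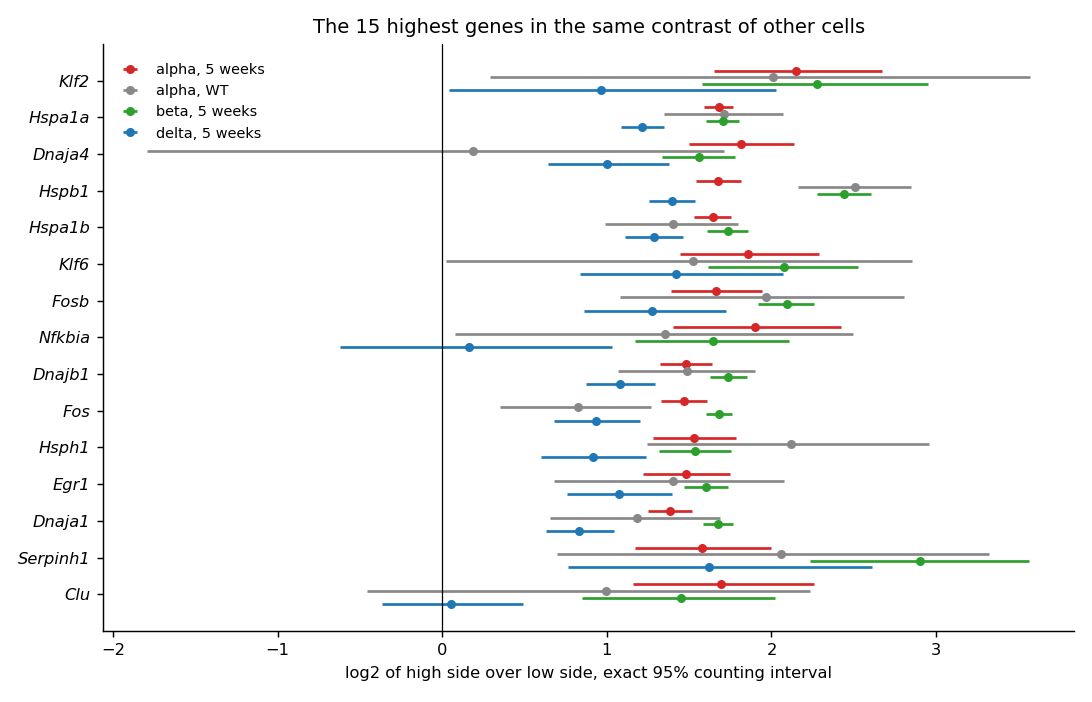
log2 ratio of the high over the low side with its exact 95% counting interval for the 15 highest genes in 5-week alpha, WT alpha, 5-week beta and 5-week delta cells. All 15 lie above 0 in each group of cells, and in delta cells 10 intervals lie wholly below those of 5-week alpha cells.

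The promoters shown above were searched for 6 motifs fixed for this purpose, on both strands, in the 250 bases before and 50 after each start site. RefSeq promoters were found for 13 of the 15 highest genes, 11 of the 15 lowest and both *Jun* and *Atf3*. The heat shock element GAANNTTC, a palindrome whose letters hold none of the other motifs, was in 5 of the 13 highest, namely *Hspa1a*, *Hspb1*, *Hspa1b*, *Hsph1* and *Dnaja1*, in 1 of the 11 lowest, *Ang*, and in the promoter of *Jun*. It was in 7.96% of 27025 promoters of the same length. In the 17 tested genes of the heat shock list, 8 of 14 with a promoter held it. Of all 55 genes at least 2-fold higher, 7 of 45 with a promoter did (15.6%). In *Hspa1a* the match began 104 bases before the start site, in *Dnaja1* 124 bases and in *Jun* 128 bases, while *Hspb1* held 2, at 117 and 97 bases. The neighbour *Hspa1b* held the same letters as *Hspa1a* at the same position, and the pair is counted as separate promoters. An arrangement of 3 alternating units, which contains the element, added after the data were seen, was in *Hsph1* alone among the 15 highest and in 0.540% of all promoters.

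The kB site was in 6 of the 13 highest, among them *Nfkbia* with the match 29 bases before its start, against 8.19% of all promoters and 0 of the 11 lowest. The 6 include both *Hspa1a* and *Hspa1b*, with the same letters at the same position. Of the 45 promoters of genes at least 2-fold higher, 11 (24.4%) held it. The cAMP response element TGACGTCA, the AP-1 site TGACTCA and the CArG box were in none of the 13 highest, none of the 11 lowest and neither *Jun* nor *Atf3*, against 1.85%, 5.17% and 1.59% of all promoters. The cAMP response element and the AP-1 site were searched as exact letters. Variants, such as TGACATCA in the *Jun* and TTACGTCA in the *Atf3* promoter shown above, were therefore not counted. Over the 45 promoters the CArG box was in 5 (11.1%), those of *Dusp5*, *Zfp36*, *Rnd3*, *Fermt2* and *Zfp644*, the cAMP response element in 3 (6.67%), those of *Dusp1*, *Dusp8* and *Ccnl1*, and the AP-1 site in 1 (2.22%), that of *Bag3*. The ATF4 site was in *Atf3*, 110 bases before its start, in *Gadd45g* alone of the 45 and in 0.929% of all promoters. A match describes letters in this window and does not show binding.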

How the data were processed

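The 3 libraries were made by the authors on the 10X Genomics Chromium. As deposited, the values are raw UMI counts per gene and barcode, which the authors obtained with Cell Ranger 3.1 on mm10 after bcl2fastq 2.17.1.14, per the submitters' processing notes. For WT alone, the authors took out doublets and cells with several hormones and scaled the library down to 12000 cells. No doublet caller was run here, and the hormone limits of the rule were the only guard. Each cell was thinned without replacement to 1000 UMIs (seed 1), leaving 851000 UMIs on the high and 977000 on the low side. CPM carry exact Poisson intervals, ratios exact conditional intervals and shares exact binomial (Clopper-Pearson) intervals at 95%, for counting error only, since cells vary more than counts. A share at a count of 0 is bounded by 3 counts. Genes were ranked with 20 CPM added to each side, and the 15 highest and 15 lowest are named, with list members and markers. The members and lists were chosen with earlier results of these data known. Beta cells had at least 15% *Ins2*, under 10% *Gcg* and under 2% *Sst*. Delta cells had at least 5% *Sst* and under 10% each of *Ins2* and *Gcg*. Tools were Python 3.11.15, numpy 2.4.6, scipy 1.17.1 and matplotlib 3.10.9. The computations were tested on simulated data. Some genes of the lists are not reported here.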

Additional observations from a re-analysis of the deposited data

Results flagged for a closer look

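The ratio of the high over the low side of *Ppp1r37* was 0.84 in beta cells of the 5-week library and -1.44 in alpha cells, with intervals on opposite sides of 0. *Tmem27* likewise stood at 0.70 in beta cells and -0.72 in alpha cells, on a beta contrast whose median over all genes was 0.31. *Nisch* stood at 1.18 in delta cells and -0.61 in alpha cells. In all 3 cases the difference between cell types was not tested, and the genes were picked for being lowest in alpha cells.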

How the results depend on the processing

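The count of genes at least 2-fold higher, 55, was 92 with the high side at 0.5% or more, 16 with sides cut on *Atf3* alone, 153 under the stricter alpha cell rule (96 and 122 cells), 23 with a filter at 200 CPM and 2484 without a filter. The count of genes lower, 2, was 1 without thinning, thinned to 2000 UMIs, in another draw, in cells with a narrower range of UMIs, cut after thinning, with limits on genes and mitochondrial UMIs, without cells at 5% mitochondrial UMIs or more, and with the mean of each cell's share. It was 9 at 0.5% or more, 89 under the stricter rule, 12 per UMIs other than *Gcg*, 0 at 200 CPM and 1657 without a filter. The AP-1 list median, 1.43, was 1.79 at 0.5% or more, 0.75 on *Atf3* alone and 1.63 under the stricter rule. The heat shock median, 1.27, was 1.59, 0.89 and 1.65 there, and 1.05 when the sides were cut on other UMIs than those counted. On *Atf3* alone, whose low side still held *Jun* at 1278 CPM, the other immediate early genes had a median of 0.78 and the integrated stress response of -0.065. Under the stricter rule the latter was 0.081 and the p53 list 1.23. The alpha secreted list stood at 0.20 without a filter, and the nuclear long non-coding RNAs at 0.28 at 0.5% or more and -0.072 per UMIs other than *Gcg*. *Ppp1r37* turned to 0.016 thinned to 2000 UMIs and 1.93 under the stricter rule. The low side held 31.0% of alpha cells when cut after thinning. Of the 227 list medians under alternatives, the other 213 moved by less than their counting half-width. Except for the alternatives' own construction (fewer cells, other genes tested), the cause was not tested. All 15 highest genes were at least 2-fold higher when the sides were cut on UMIs other than those counted, and 5 were on *Atf3* alone. No paired analysis was possible because each condition was 1 library. Depth limits the low genes: all of the 15 lowest but *Gm26917*, *Tmem27* and *Pgam1* had under 100 UMIs on each side.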
